A study of Rattus norvegicus with 18 samples.

Results

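The genes of the synaptic vesicle and release machinery were followed in the cerebral cortex of rats after subarachnoid hemorrhage (SAH), bleeding into the fluid space around the brain. The set holds 42 named genes of 7 roles, which are the SNARE proteins with their cofactors, the synaptotagmins, the vesicle proteins, the active zone proteins, the endocytosis proteins, the postsynaptic scaffolds and the adhesion molecules. A gene was a member if its symbol stood in the count table, and 41 of the 42 names were found among the 30735 genes of the table. Sv2b was not matched by symbol and is not analysed here. All 41 genes passed the filter on low counts, which left 18444 genes for testing.

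A synaptic vesicle is filled with transmitter by transporters in its membrane, docks at the active zone and fuses with the plasma membrane when calcium enters the terminal. Fusion is driven by the SNARE proteins, calcium is sensed by synaptotagmins, and the vesicle membrane is then retrieved by endocytosis. Scaffolds in the receiving neuron hold the receptors opposite the release site, and neurexins and neuroligins bridge the cleft. In the cortex most of these genes are expressed mainly by neurons.

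RNA of the cortex was sequenced in 18 libraries, 1 per adult Sprague Dawley rat. Bleeding was induced by piercing an artery from within with a filament, and tissue was taken on day 1 (SAH 1d, n = 6) or day 7 (SAH 7d, n = 6). The sham rats (n = 6) had the operation without the perforation, so that surgery and anesthesia are shared by all groups. The day on which sham tissue was taken is given neither in the labels nor in the methods. How far the time since surgery was matched between sham and each SAH group is therefore not known. The study's methods name the cortex of the operated side, the labels name both sides, and neither gives the sex. Total counts per library were between 27270026 and 38271014. Levels between libraries are given as CPM, counts scaled to the library total as corrected by TMM (trimmed mean of M values). Levels between genes are given as FPKM, the deposited fragment numbers scaled to gene length and depth.

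A few libraries stood apart in these genes. The library SAH 7d-5 was the lowest of its group in 41 of the 41 genes, with a median of 0.364 times the level of the other SAH 7d libraries. It was lowest by ratio for Cplx2, at 0.182 times, and least low for Nlgn2, at 0.55 times. It was also below every SAH 1d library in 41 of 41 genes. In SAH 7d-5 the summed level of the 7 microglia markers was 3627 CPM, against 371 to 1169 CPM in the other SAH 7d libraries. The summed level of 10 neuron markers that are not synaptic genes was 1620 CPM there, against 3763 to 4688 CPM. Other summed marker levels also differed there. They were 2111 CPM for meningeal fibroblasts (129 to 256 CPM in the other SAH 7d libraries), 725 CPM for monocytes and macrophages (23.7 to 70.4 CPM), 183 CPM for thalamus (50.9 to 77.3 CPM), 124 CPM for striatum (354 to 906 CPM) and 0.756 CPM for red cells (7.25 to 65.3 CPM). The library SAH 1d-3 was the lowest of its group in 29 genes and the highest in 7, with a median ratio of 0.72. The library sham-1 was the lowest of its group in 29 genes, with a median ratio of 0.768. The counts and medians over the 41 genes are therefore given with all libraries and without SAH 1d-3 or SAH 7d-5. The library sham-1 was left out only among the fits without 1 library. The part of the marker genes in these results was not tested.

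**Figure D1:**
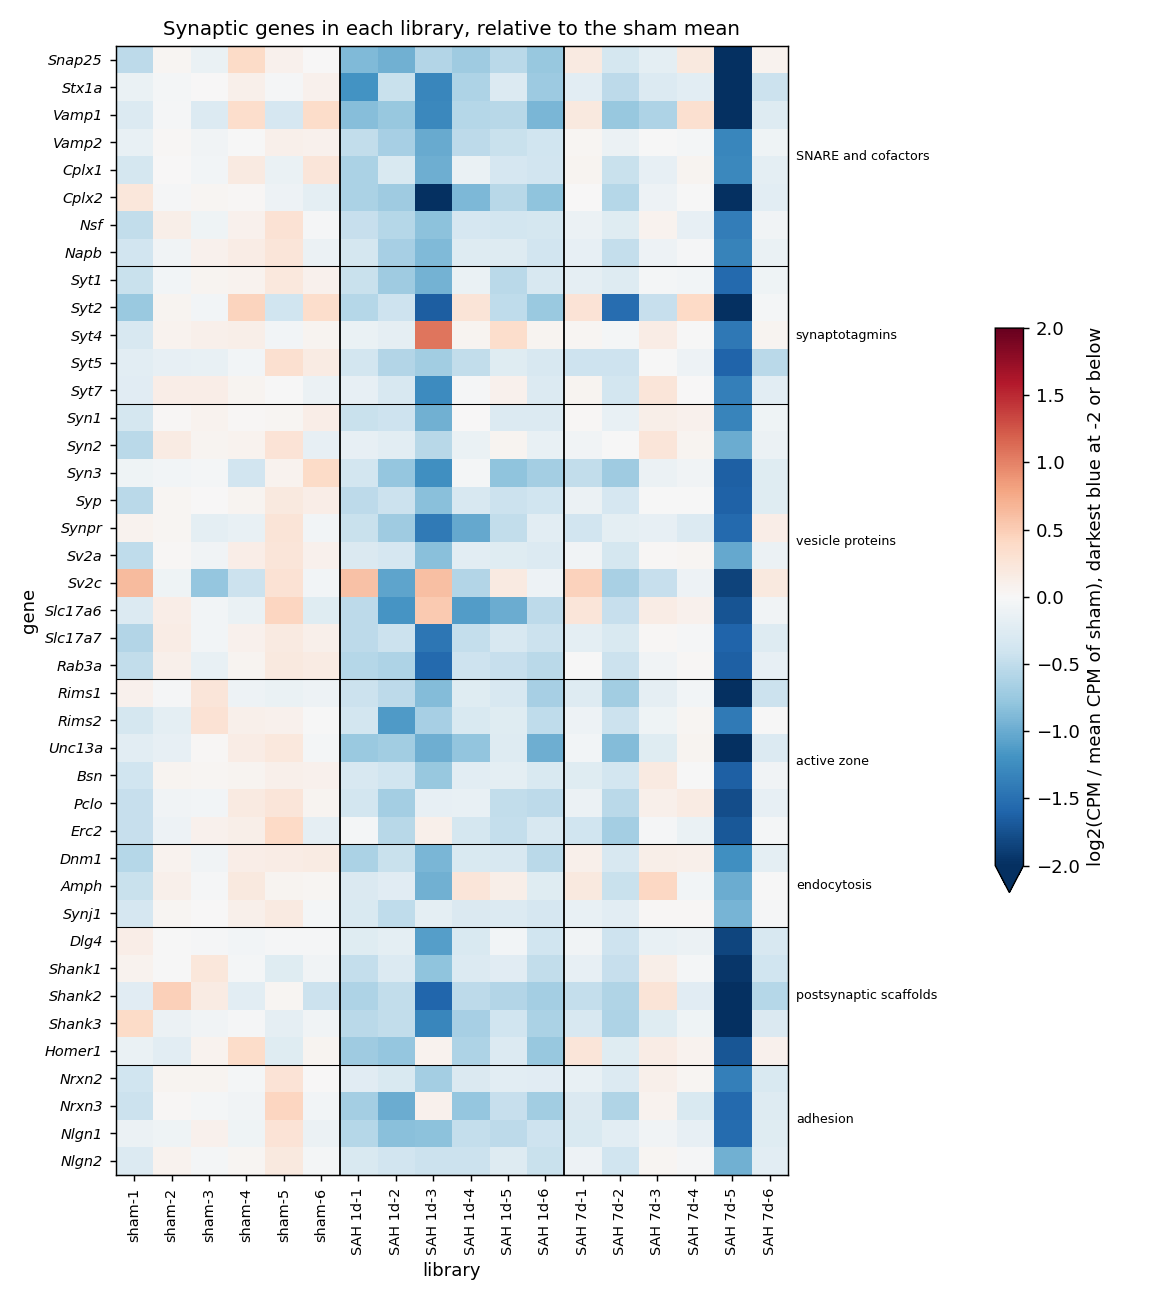
Level of the 41 genes (rows, ordered by role) in each of the 18 libraries (columns), as log2 of the CPM over the mean CPM of the sham libraries. The column of SAH 7d-5 is blue in all 41 rows, and the SAH 1d columns are mostly blue. The other SAH 7d columns are closer to the sham level, except SAH 7d-2. Its median over the 41 genes, -0.418, lies inside the SAH 1d range of -0.874 to -0.313. Values at or below -2 share the darkest blue.

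The promoters of these genes were searched in the RefSeq table of the GRCr8 assembly for motifs of activity-regulated factors. The table has an entry for 33 of the 42 names, and the 250 bases before the start were read on both strands. The cAMP response element TGACGTCA was present in 2 of the 33 promoters (6.06%), those of Vamp1 and Syn1, against 1.59% of all 33469 promoters of the same length. Its shorter form TGACG, which lies inside the full element, was present in 10 of the 33 (30.3%), against 18.2% of all promoters. The Egr1 motif GCGGGGGCG was present in 6 of the 33 (18.2%), namely Syn2, Syt1, Vamp2, Nsf, Syn1 and Syp, against 2.45% of all promoters. These matches are a description of the letters, and no count of them was tested.

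Shown are 4 promoters of genes that fell at SAH 1d and, for comparison, that of Syn1, which holds all these motifs and did not pass the test. They are those of Vamp1 (chr4:159698644-159698893, plus strand), Vamp2 (chr10:54292539-54292788, plus strand), Unc13a (chr16:18415787-18416036, minus strand), Nlgn1 (chr2:110930677-110930926, minus strand) and Syn1 (chrX:3725495-3725744, plus strand), each written 5′ to 3′ along the gene. Capitals mark the letters of the motifs on either strand, so that CGTCA and CGCCCCCGC are matches on the opposite strand.
Vamp1: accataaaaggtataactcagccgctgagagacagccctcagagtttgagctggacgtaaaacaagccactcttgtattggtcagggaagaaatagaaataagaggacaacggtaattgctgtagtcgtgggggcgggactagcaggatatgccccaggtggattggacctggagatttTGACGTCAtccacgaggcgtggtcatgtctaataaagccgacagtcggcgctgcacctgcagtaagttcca
Vamp2: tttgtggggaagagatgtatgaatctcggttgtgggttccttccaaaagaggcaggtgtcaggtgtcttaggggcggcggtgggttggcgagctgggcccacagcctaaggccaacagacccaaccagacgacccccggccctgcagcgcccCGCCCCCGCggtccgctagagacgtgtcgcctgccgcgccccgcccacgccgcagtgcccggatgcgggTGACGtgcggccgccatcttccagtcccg
Unc13a: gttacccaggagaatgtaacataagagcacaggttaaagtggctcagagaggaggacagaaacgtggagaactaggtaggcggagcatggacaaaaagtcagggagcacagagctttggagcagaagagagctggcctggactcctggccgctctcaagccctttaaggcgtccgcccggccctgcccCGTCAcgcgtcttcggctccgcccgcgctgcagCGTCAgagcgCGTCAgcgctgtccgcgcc
Nlgn1: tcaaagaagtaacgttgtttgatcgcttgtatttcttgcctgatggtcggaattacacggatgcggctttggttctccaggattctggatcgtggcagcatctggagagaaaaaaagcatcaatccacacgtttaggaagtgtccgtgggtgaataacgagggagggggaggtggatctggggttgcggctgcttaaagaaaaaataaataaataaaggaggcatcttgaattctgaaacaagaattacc
Syn1: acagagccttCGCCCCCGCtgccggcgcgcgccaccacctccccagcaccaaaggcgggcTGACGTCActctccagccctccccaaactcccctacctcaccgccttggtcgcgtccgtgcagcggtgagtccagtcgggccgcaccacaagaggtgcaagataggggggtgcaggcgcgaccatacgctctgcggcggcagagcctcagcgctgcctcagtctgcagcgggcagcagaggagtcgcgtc
Vamp1 has the full element, Vamp2 has TGACG beside an Egr1 motif, and Unc13a has TGACG in 3 places on the opposite strand. Nlgn1, the gene with the smallest p-value at SAH 1d, has no match in this window.

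In sham cortex the genes spanned a wide range of levels per length. Snap25, a SNARE protein of the plasma membrane, had the highest mean of the 41 genes, with 1841 FPKM ± 404 (SD, n = 6). The next were Slc17a7 with 477 ± 95.6 FPKM, Syp with 446 ± 81.8 FPKM and Syt1 with 430 ± 73.9 FPKM, and these 3 did not differ beyond their spread. Slc17a7 encodes VGLUT1, the glutamate transporter of cortical vesicles, and Syp encodes synaptophysin, an abundant vesicle membrane protein. The lowest were Sv2c with 1.63 ± 0.529 FPKM, Syn3 with 3.05 ± 0.55 FPKM, Slc17a6 with 5.57 ± 1.27 FPKM and Syt2 with 6.59 ± 1.99 FPKM, the last pair overlapping. Slc17a6 encodes VGLUT2, used by thalamic input to the cortex. The VGLUT1 gene had the far higher level per length here.

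The comparison of SAH 1d with sham asks what the first day after the bleeding does to these genes. At SAH 1d 30 of the 41 genes were lower and 0 were higher at an adjusted p under 0.05 in edgeR's quasi-likelihood test with Benjamini-Hochberg adjustment over all tested genes. Of all 18444 tested genes, 10.5% were lower and 14.9% were higher. The median log2 fold change of the 41 genes was -0.48, whereas that of all tested genes was 0.01. None of the 41 reached a 2-fold change, and the estimates of 39 were below 0. In 13 genes every SAH 1d library was below every sham library, which held for 5.41% of all tested genes, and in 0 genes was every library above, against 7.89%. Without SAH 1d-3 the test called 31 genes lower, against 13.0% of all tested genes, with a median of -0.42.

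Neuron markers moved in the same libraries. Of the 10 neuron markers that are not synaptic genes, 8 were lower and 0 were higher at SAH 1d, with a median log2 fold change of -0.42, and without SAH 1d-3 the count was 7 and the median -0.37. Their summed level was 3966 to 4966 CPM in sham and 2531 to 3699 CPM at SAH 1d, and the groups did not overlap. Among markers of other cells, 2 of 6 cortical excitatory neuron genes were lower, 2 of 8 astrocyte genes were lower and 2 higher, 1 of 7 microglia genes was lower and 1 higher, 2 of 4 monocyte and macrophage genes were higher and 1 of 4 choroid plexus genes was higher. The part of these cells in the values of the 41 genes was not tested. When the libraries were scaled to these markers in place of TMM, 2 of the 41 genes, Vamp1 and Unc13a, were lower and 2, Syt4 and Syn2, were higher. Under that scaling the median of the 41 genes was -0.05 and that of all tested genes 0.43, and 1.31% of all tested genes were lower and 44.6% higher. In bulk tissue, fewer neurons and less of these RNAs per neuron cannot be told apart. All 18 libraries in 1 fit, which then also takes in the spread of SAH 7d, gave 2 genes lower, Vamp2 and Nlgn1, against 5.17% of all tested genes. Limma on log2(FPKM + 1) gave 14 genes lower, against 6.07% of the genes tested on that scale. Of the 30 calls, 21 were kept in each of the 12 fits without 1 library. The other 9 were lost in 1 or more of them, namely Cplx1, Syn3, Slc17a7, Rims2, Bsn, Pclo, Homer1, Nrxn2 and Nrxn3, and all 9 were lost without sham-3. Without sham-1 all 30 calls were kept.

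**Figure D2:**
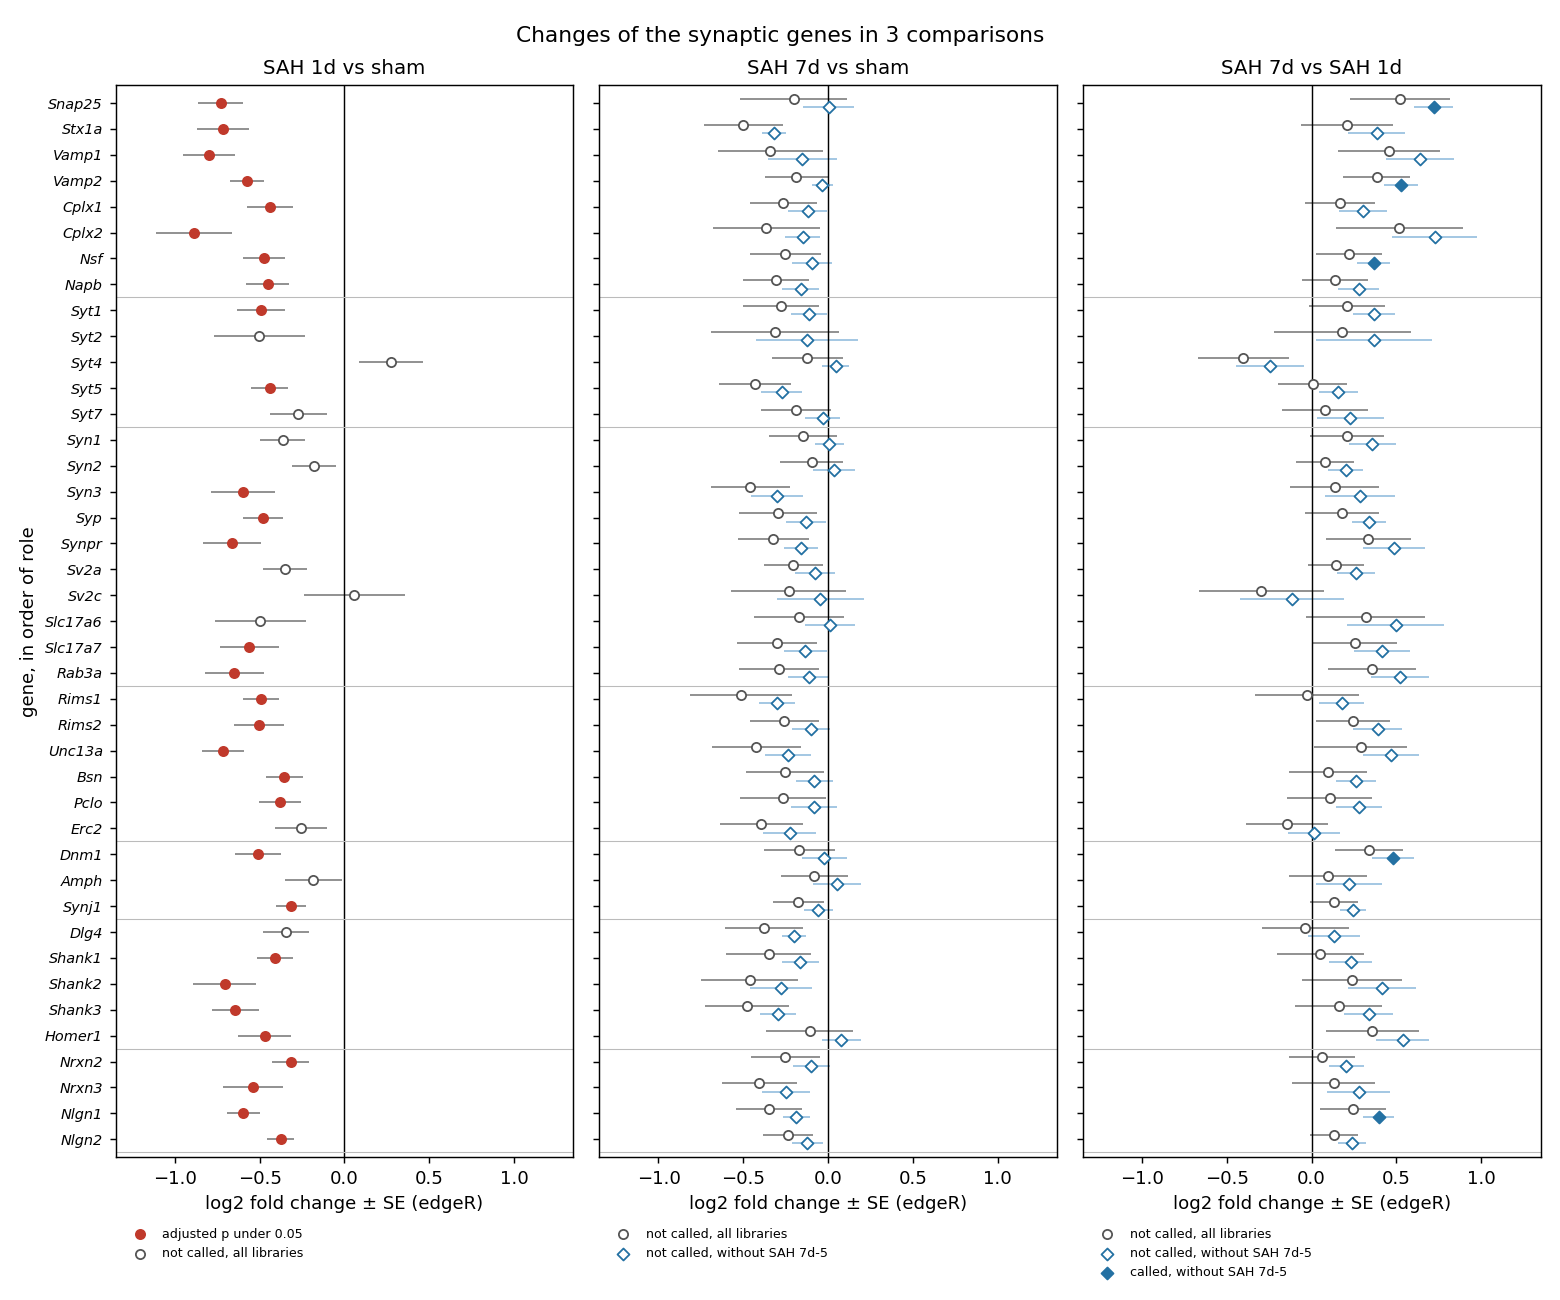
Log2 fold change with its standard error (edgeR, n = 6 per group) of the 41 genes in the 3 comparisons, ordered by role. Filled circles are called at an adjusted p under 0.05 and open circles are not, with diamonds for the values without SAH 7d-5. In the left panel 30 circles are filled, all of them below 0, and in the middle panel none is filled.

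Of the SNARE proteins and their cofactors, 8 of 8 genes fell at SAH 1d, with a median log2 fold change of -0.65 and estimates from -0.89 to -0.44. Vamp2, the vesicle SNARE of most cortical synapses, had 664, 738 and 792 CPM as the lowest, median and highest sham values, and 366, 515 and 559.5 CPM at SAH 1d. No SAH 1d library reached the sham range, and Vamp2 fell by 32.9%, or -0.57 ± 0.10 (SE) on the log2 scale (adjusted p = 0.00156). Snap25, its partner in the plasma membrane, was at 2357, 3418 and 4412 CPM in sham and at 1725, 2034 and 2317 CPM at SAH 1d. Here the highest SAH 1d library lay just below sham-1, the lowest of the sham group, and Snap25 fell by 39.7% (log2 fold change -0.73 ± 0.13, adjusted p = 0.00225). Cplx1, a complexin that clamps the assembled SNAREs, had 500.5, 629 and 756 CPM in sham and 322, 497 and 580 CPM at SAH 1d. Its groups overlapped through sham-1 alone, 3 SAH 1d libraries being below all sham libraries, and Cplx1 fell by 26.2% (adjusted p = 0.0322). It was the call of the role with the largest p-value, and it was kept in 7 of the 12 fits without 1 library.

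The other SNARE genes were chosen for mention after their values were seen. Cplx2, the second complexin of the cortex, had the most negative estimate of the 41 genes, -0.89 ± 0.22 (adjusted p = 0.0124), with 338, 388 and 454 CPM in sham and 75.7, 230 and 263 CPM at SAH 1d. The lowest of these values was that of SAH 1d-3, and the other SAH 1d libraries were also below the sham range. Without SAH 1d-3 the estimate for Cplx2 was -0.71 (adjusted p = 7.43e-05). Vamp1, a close relative of Vamp2 that serves subsets of neurons, fell by 42.6% (-0.80 ± 0.15, adjusted p = 0.00314), and Stx1a, the syntaxin of the target membrane, fell by 39.0% (-0.71 ± 0.15, adjusted p = 0.00551). Nsf and Napb, which take spent SNARE complexes apart, had estimates of -0.48 and -0.45.

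Of the synaptotagmins, 2 of 5 genes fell and the others did not pass the test. Syt1, the calcium sensor of fast release, had 1359, 1944 and 2160 CPM in sham and 963, 1324 and 1688 CPM at SAH 1d. Its groups overlapped through sham-1 alone, with 3 SAH 1d libraries below all sham libraries, and Syt1 fell by 28.9% (log2 fold change -0.49 ± 0.14, adjusted p = 0.0209). Syt5 had 163, 176 and 236 CPM in sham and 116, 140.5 and 159 CPM at SAH 1d, with no overlap, and fell by 26.4% (-0.44 ± 0.11, adjusted p = 0.0111). Syt4, an activity-induced synaptotagmin that does not bind calcium in the usual way, had 314, 410 and 424 CPM in sham and 349, 408 and 826 CPM at SAH 1d. The groups overlapped, with SAH 1d-3 at 826 CPM and SAH 1d-5 at 502.5 CPM above all sham libraries and the other 4 inside the sham range, and the estimate was 0.28 ± 0.19 (adjusted p = 0.306). Without SAH 1d-3 it was 0.04 (adjusted p = 0.803). Syt7, a sensor of slower release, and Syt2, the fast sensor of hindbrain and some inhibitory terminals, were not called, with estimates of -0.27 and -0.50.

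Of the 10 vesicle proteins found, 5 fell, namely Syn3, Syp, Synpr, Slc17a7 and Rab3a, and 5 were not called. Syp had 463, 691 and 766 CPM in sham and 377, 497 and 539 CPM at SAH 1d. The groups met only because sham-1 was low, and Syp fell by 28.3% (log2 fold change -0.48 ± 0.12, adjusted p = 0.0117). Synpr, the synaptophysin relative synaptoporin, had 174, 199 and 239 CPM in sham and 75.1, 132 and 172 CPM at SAH 1d, without overlap, and fell by 36.9% (-0.66 ± 0.17, adjusted p = 0.0130). Rab3a, a small GTPase that ties vesicles to the active zone, fell by 36.2% and Slc17a7 fell by 32.2%, the latter call being kept in 6 of the 12 fits without 1 library. The synapsins tether vesicles to each other, and all 3 had estimates below 0. Syn3, the least expressed of them, fell (-0.60 ± 0.19, adjusted p = 0.0343) and kept its call in 5 of the 12 fits. Syn1 (-0.36, adjusted p = 0.0617) and Syn2 (-0.18, adjusted p = 0.334) were not called. Sv2a, a vesicle glycoprotein and drug target in epilepsy, was not called either (-0.35, adjusted p = 0.0608).

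Slc17a6, Syt2, Synpr and Sv2c are also strong in neurons of regions beyond the neocortex, so markers of thalamus, striatum and dentate gyrus were set beside them. Slc17a6 had 19.9, 22.6 and 32.6 CPM in sham and 10.6, 14.4 and 34.8 CPM at SAH 1d. 5 SAH 1d libraries lay below all sham libraries, whereas SAH 1d-3 lay above them all, and the estimate was -0.50 ± 0.27 (adjusted p = 0.189). Without SAH 1d-3 it was -0.84 (adjusted p = 0.00244). Of the 5 thalamic markers, 3 were higher in SAH 1d-3 than in the others of its group, Prkcd at 72.4 CPM (22.9 to 38.3 CPM), Rgs16 at 49.4 CPM (19.9 to 26.9 CPM) and Plekhg1 at 25.3 CPM (14.1 to 20.5 CPM). Tcf7l2 at 10.8 CPM and Lhx9 at 0.177 CPM were inside the range of the others. In SAH 7d-5 Prkcd was higher still, at 112 CPM, while Slc17a6 was at its lowest level of all libraries, 7.32 CPM. SAH 1d-3 also had 9.41 CPM of the dentate marker Dsp, against 0.884 to 2.50 CPM. Sv2c, strongest in basal ganglia, had 3.07, 4.998 and 8.06 CPM in sham and 2.53, 5.38 and 7.91 CPM at SAH 1d, an almost complete overlap (estimate 0.06 ± 0.30, adjusted p = 0.905). Syt2 had 13.1, 21.9 and 29.9 CPM in sham and 6.95, 15.1 and 26.2 CPM at SAH 1d, with 1 library, SAH 1d-3, below the sham range. The summed level of the 5 thalamic markers was 48.1 to 67.6 CPM in sham and 72 to 158 CPM at SAH 1d. That of the 6 striatal markers was 357 to 1535 CPM in sham and 151 to 690 CPM at SAH 1d. That of the 3 dentate markers was 11.3 to 18.2 CPM and 15.7 to 34.7 CPM. The thalamic sums did not overlap, but the medians over the thalamic markers of log2 of CPM over the sham mean did. These medians were -0.16 to 0.334 in sham and -0.044 to 0.662 at SAH 1d. The part of these regions in the values of the 4 genes was not tested.

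Of the active zone proteins, 5 of 6 genes fell. Unc13a, the priming factor Munc13-1, had 83.9, 96.9 and 113 CPM in sham and 49.7, 57.5 and 81.4 CPM at SAH 1d. All SAH 1d libraries were below the sham range, and Unc13a fell by 39.2% (log2 fold change -0.72 ± 0.12, adjusted p = 0.00156). Rims1, which recruits Munc13 and calcium channels, had 159, 167 and 205 CPM in sham and 95.3, 125 and 148 CPM at SAH 1d, also without overlap, and fell by 28.9% (-0.49 ± 0.11, adjusted p = 0.00572). Rims2 (-0.51) fell as well, as did the large scaffolds Bsn (-0.35) and Pclo (-0.38). Of the 12 fits without 1 library, the calls were kept in 11 for Rims2, 6 for Bsn and 3 for Pclo, with adjusted p up to 0.0607 for Bsn and 0.0883 for Pclo. Erc2, a scaffold of the same complex, had 15.9, 21.9 and 28.9 CPM in sham and 14.9, 17.4 and 23.5 CPM at SAH 1d. Its groups overlapped, and it was not called (-0.26 ± 0.15, adjusted p = 0.231).

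Of the endocytosis proteins, 2 of 3 genes fell. Dnm1, the dynamin that pinches vesicles off, had 644, 1026 and 1078 CPM in sham and 506, 680 and 779 CPM at SAH 1d. The groups overlapped through sham-1 alone, and Dnm1 fell by 29.9% (log2 fold change -0.51 ± 0.14, adjusted p = 0.0154). Synj1, the phosphatase that strips the clathrin coat, had 356, 457 and 511 CPM in sham and 316, 366 and 395 CPM at SAH 1d, and fell by 19.6% (-0.32 ± 0.09, adjusted p = 0.0217). Amph, an adaptor that brings dynamin to the membrane, had 57.0, 80.2 and 88.6 CPM in sham and 39.8, 65.9 and 91.4 CPM at SAH 1d. Its SAH 1d values reached both below and above the sham range, and it was not called (-0.18 ± 0.17, adjusted p = 0.443).

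**Figure D3:**
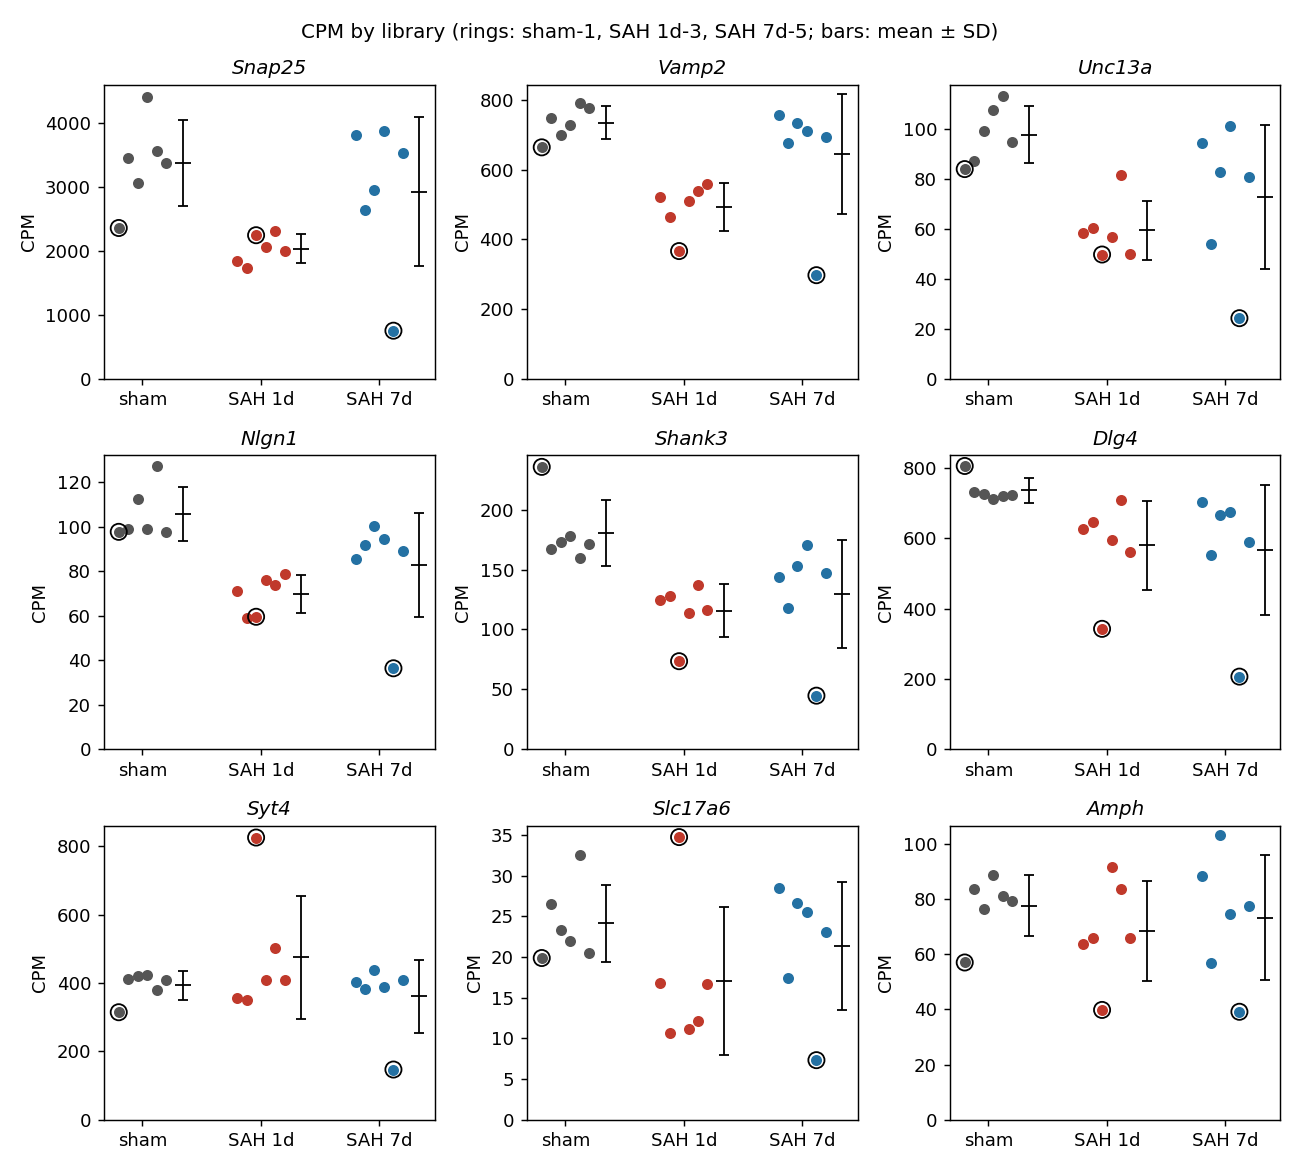
CPM of 9 genes in each library (points) with the mean ± SD of each group (bars, n = 6), and rings around sham-1, SAH 1d-3 and SAH 7d-5. Snap25, Vamp2, Unc13a, Nlgn1, Shank3 and Dlg4 show no overlap between sham and SAH 1d. Syt4 and Slc17a6 have their top SAH 1d value in SAH 1d-3, and the lowest SAH 7d value of every gene shown is SAH 7d-5.

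Of the postsynaptic scaffolds, 4 of 5 genes fell. Shank3, a scaffold that links receptors to actin, had 160, 172 and 236 CPM in sham and 73.5, 121 and 138 CPM at SAH 1d, without overlap, and fell by 36.0% (log2 fold change -0.64 ± 0.14, adjusted p = 0.00562). Shank1 had 233, 270 and 322 CPM in sham and 157, 212 and 234 CPM at SAH 1d. Only 1 of its SAH 1d libraries was inside the sham range, and Shank1 fell by 24.7% (-0.41 ± 0.10, adjusted p = 0.0128). Dlg4, the scaffold PSD-95, had 710, 725 and 805 CPM in sham and 342, 609 and 707 CPM at SAH 1d. All its SAH 1d libraries were below the sham range, yet it was not called, with an estimate of -0.35 ± 0.14 (adjusted p = 0.0756). Without SAH 1d-3, the lowest of its group, the estimate was -0.23 and the adjusted p = 0.0216. Shank2 (-0.71) and Homer1 (-0.47), which binds Shank proteins, fell too. Homer1 was at 62.6 CPM in SAH 1d-3 and at 35.1 to 49.8 CPM in the others of the group, and its estimate without SAH 1d-3 was -0.61 (adjusted p = 0.00280). Its call was kept in 5 of the 12 fits without 1 library, with adjusted p up to 0.0978.

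All 4 adhesion molecules fell. Nlgn1, the neuroligin of excitatory synapses, had 97.6, 99.0 and 127 CPM in sham and 58.8, 72.5 and 78.8 CPM at SAH 1d. No library overlapped, and Nlgn1 fell by 33.9% (log2 fold change -0.60 ± 0.10, adjusted p = 0.00127), the smallest p-value of the 41 genes. Nlgn2, its counterpart at inhibitory synapses, had 96.1, 117 and 134 CPM in sham and 85.9, 88.0 and 97.5 CPM at SAH 1d, with 5 libraries below all sham libraries, and fell by 22.9% (-0.38 ± 0.08, adjusted p = 0.00521). Nrxn2, a presynaptic partner of the neuroligins, had 225, 304 and 359 CPM in sham and 186, 250 and 258 CPM at SAH 1d. The groups overlapped through sham-1 alone, with 1 SAH 1d library below all sham libraries. Nrxn2 passed the threshold narrowly (-0.32 ± 0.11, adjusted p = 0.0496). Nrxn2 kept its call in 1 of the 12 fits without 1 library, the fit without sham-1 (adjusted p = 0.0103). Nrxn3 fell by 31.2%, with an estimate of -0.71 without SAH 1d-3, which was high for this gene. Its call was kept in 2 of the 12 fits, with adjusted p up to 0.0964.

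A further 98 synaptic genes with the same roles were listed, of which 94 were found and tested. At SAH 1d 47 of them were lower and 2 were higher, against 10.5% and 14.9% of all tested genes, with a median log2 fold change of -0.39. Without SAH 1d-3, 57 were lower and 3 higher, with a median of -0.32. The largest decreases were in Nrgn, the calmodulin-binding neurogranin of spines (-1.07 ± 0.20, adjusted p = 0.00264), Cadps2, a priming factor of dense-core vesicles (-0.95 ± 0.24, adjusted p = 0.0130), and Camk2a, the alpha subunit of the calmodulin kinase of spines (-0.91 ± 0.26, adjusted p = 0.0237). The increases were in Sypl2, a synaptophysin relative known from skeletal muscle (2.12 ± 0.37, adjusted p = 0.00167), and Homer3, a Homer relative (0.87 ± 0.23, adjusted p = 0.0142).

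The comparison of SAH 7d with sham asks what remains after a week. It uses the same sham libraries as the comparison of SAH 1d, so that both share the error of that group. At SAH 7d 0 of the 41 genes were lower and 0 were higher in edgeR's test, as were 0.0% of all tested genes in either direction. At an unadjusted p under 0.05 in edgeR the counts were also 0, against 3.66% of all tested genes lower and 11.7% higher. DESeq2 and limma called 0 genes of the set, counts that stand without their shares of all tested genes. The median log2 fold change was -0.28, against -0.00 for all tested genes, and the estimates of all 41 genes were below 0. Without SAH 7d-5 the median was -0.12, with 34 estimates below 0 and 7 above, and 0 genes of the set were called. The share of all tested genes called in that fit is not given here, so this count describes the set alone. Missing the threshold does not show that levels were equal to sham, since the standard errors of the 41 genes with all libraries ranged up to 0.38 on the log2 scale.

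In most genes SAH 7d-5 set the lower end of the range of SAH 7d on its own. Vamp2 had 297, 702 and 755 CPM at SAH 7d as the lowest, median and highest values, and its 5 libraries other than SAH 7d-5 were between 675 and 755 CPM, inside the sham range. Its estimate against sham was -0.19 ± 0.19 with all libraries (adjusted p = 0.585) and -0.03 ± 0.06 without SAH 7d-5 (adjusted p = 0.871). Snap25 had 750.4, 3241 and 3868 CPM, and without SAH 7d-5 its estimate was 0.00 ± 0.15. The SAH 7d median was within the sham range in 30 of the 41 genes and below it in 11, among them Stx1a, Unc13a, Dlg4 and Nlgn1. Of the other SAH 7d libraries, SAH 7d-2 was the lowest in 36 of the 41 genes. Its median log2 ratio to the sham mean over the 41 genes was -0.418, inside the SAH 1d range of -0.874 to -0.313. Of the 10 neuron markers 0 were called at SAH 7d, with a median log2 fold change of -0.22, and of -0.06 without SAH 7d-5.

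A few genes stayed lower in most SAH 7d libraries. Stx1a had 282, 306 and 330 CPM in sham and 75.6, 242 and 267 CPM at SAH 7d, with no overlap, but it did not pass the test (-0.50 ± 0.23, adjusted p = 0.329). Without SAH 7d-5 the groups still did not overlap, and the estimate for Stx1a was -0.32 ± 0.07 (adjusted p = 0.118). Dlg4 had 206, 629 and 704 CPM at SAH 7d, all below the sham range, with estimates of -0.38 ± 0.23 (adjusted p = 0.414) and, without SAH 7d-5, -0.20 ± 0.07 (adjusted p = 0.256). These 2 were the only genes of the set without overlap, which held for 0.428% of all tested genes in this direction and for 0.797% in the other. Without SAH 7d-5, 6 genes were lower at an unadjusted p under 0.05, against 4.53% of all tested genes, namely Stx1a, Syt5, Rims1, Dlg4, Shank3 and Nlgn1, and their adjusted p-values stayed above the threshold.

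**Figure D4:**
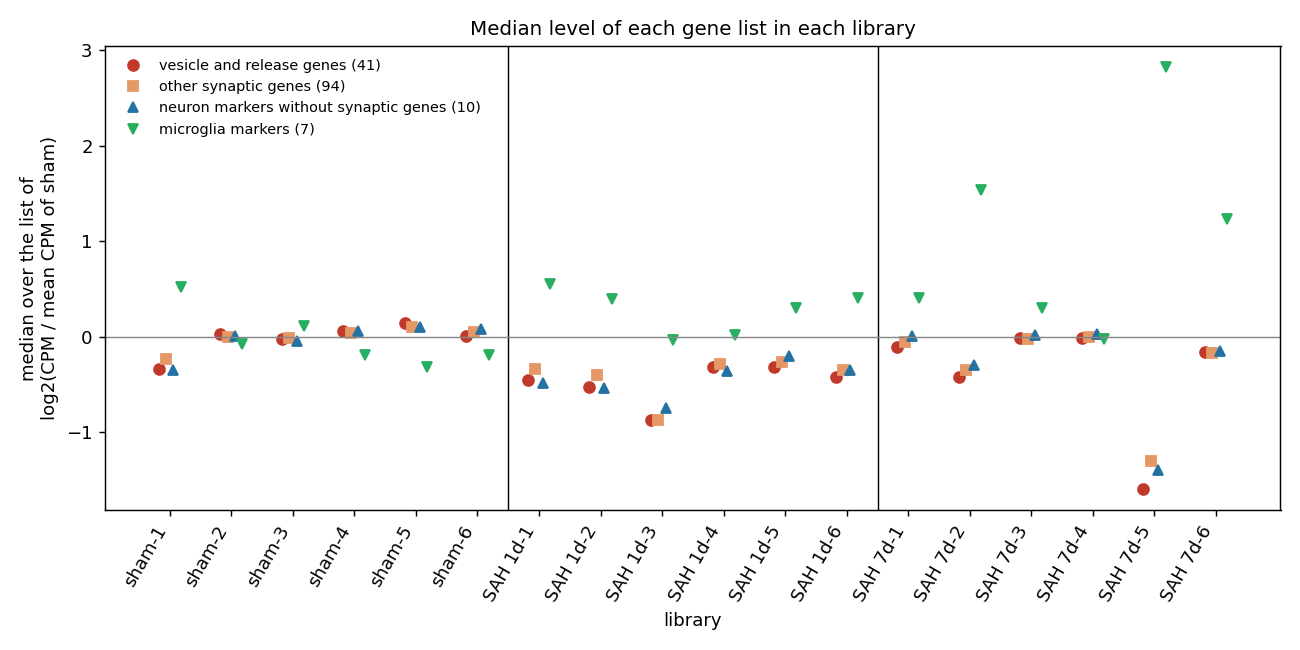
Median over each gene list of log2 of the CPM over the sham mean CPM, for each of the 18 libraries. The medians of the 41 genes, the 94 further synaptic genes and the 10 neuron markers are lowest in SAH 7d-5, where that of the 7 microglia markers is highest.

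The direct comparison of SAH 7d with SAH 1d asks whether the levels differed between the time points. In edgeR's test 0 of the 41 genes were higher and 0 were lower at SAH 7d, whereas 0.282% of all tested genes were higher and 1.08% lower. The median log2 fold change was 0.17, against 0.03 for all tested genes, and 36 estimates were above 0. DESeq2 called 0 genes of the set, a count without its share of all tested genes. Limma with quality weights for the libraries called 11 higher, against 6.37% of all tested genes. Without SAH 7d-5, edgeR called 5 genes higher, while 3.18% of all tested genes were higher, and the median was 0.34. The 5 genes were Snap25 (0.72 ± 0.12, adjusted p = 0.00543), Vamp2 (0.53 ± 0.10, adjusted p = 0.0102), Nlgn1 (0.39 ± 0.09, adjusted p = 0.0234), Dnm1 (0.48 ± 0.12, adjusted p = 0.0348) and Nsf (0.37 ± 0.10, adjusted p = 0.0368). With both of the libraries that stood apart left out the count was 13, while 6.13% of all tested genes were higher.

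The medians showed the same order in nearly all genes. The SAH 7d median was above the SAH 1d median in 39 of the 41 genes, the others being Syt4 and Sv2c. The genes were measured in the same libraries, so these are not 39 separate observations. The share of all tested genes with this order was not counted. Syt4 had 147, 396 and 437 CPM at SAH 7d and an estimate of -0.40 ± 0.27 against SAH 1d (adjusted p = 0.525), and without SAH 7d-5 it was -0.24. Unc13a had 24.2, 81.7 and 101.1 CPM at SAH 7d, so that its median lay between those of sham and SAH 1d, and Nlgn1 had 36.3, 90.2 and 100.2 CPM. Shank3 had 44.7, 146 and 170 CPM and Syp 219, 593 and 669 CPM, also with medians between the other groups. Erc2 had 6.75, 18.4 and 21.5 CPM and Dlg4 gave an estimate of -0.04 ± 0.26, and neither was called. Of the 10 neuron markers, 0 were called in this comparison, with a median of 0.20, and without SAH 7d-5 3 were higher, with a median of 0.33. Of the 94 further synaptic genes, 1 was lower at SAH 7d than at SAH 1d, Sypl2 (-2.48 ± 0.42, adjusted p = 0.0123), a share near the 1.08% of all tested genes. Without SAH 7d-5, 1 was lower and 11 were higher, against 3.18% of all tested genes higher.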

How the data were processed

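Whole cortex RNA of 18 rats was made into libraries with a NEBNext Ultra kit. Per the study's methods, reads were cleaned of adapters and poor quality and aligned to the rat genome Rnor_6.0. The submitters' processing notes name fastp, HISAT2, DESeq2 1.16.1 and, in disagreement with the rat gene identifiers, the build mm9. The authors deposited unnormalized read counts for each gene, in whole numbers, and FPKM beside them. The counting program and strand setting are not given in the sources used. Libraries were grouped by their deposited descriptions, which equal the column names.

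Counts were tested with edgeR 4.0.16 in R 4.3.3, with filterByExpr on all 18 libraries, TMM and two-sided quasi-likelihood F tests on 12 libraries per comparison. A gene was called at a Benjamini-Hochberg adjusted p under 0.05, and a 2-fold change was counted beside it. The SE given for edgeR was derived from its test, as the absolute log2 fold change over the square root of F. Alternatives used DESeq2 1.42.0, limma 3.58.1, other scalings, filters, FPKM scales, the replicate number as a block and fits without single libraries. The scripts were tested on simulated data. Tables and figures were made with Python 3.11.15, pandas 2.3.3 and matplotlib 3.10.9. Total counts per library were at least 27641629, 27270026 and 28867675 in sham, SAH 1d and SAH 7d, and errors are those between rats.

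The members and lists were chosen with earlier results of these data known. Values are given for the 2 smallest and the largest p-value of SAH 1d in each role (all genes in roles of 3), for genes with 2-fold calls or calls at SAH 7d, and for Slc17a6, Syt2, Synpr and Sv2c beside region markers. Of the further synaptic genes, the 3 largest called changes in each direction are named. Protein sequences were not used here.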

Additional observations from a re-analysis of the deposited data

Results flagged for a closer look

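Values of the named genes that lay apart from the rest of their group of 6 by Dixon's test on log2 CPM were mostly those of SAH 7d-5, and chance marks about 1 in 20 groups. Over the 41 genes and 3 groups, 48 of 123 group tests were marked. The tests are not independent, since the genes share the same libraries, so the rate of 1 in 20 is no measure for this total. SAH 7d-5 was marked as lowest in 29 genes, SAH 1d-3 as lowest in 10, and sham-1 as lowest in 7 and highest in 2.

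In SAH 7d-5 the marked values were 750.4 CPM for Snap25, 296.9 CPM for Vamp2, 635.2 CPM for Syt1, 146.7 CPM for Syt4 and 62.38 CPM for Syt5. They were 218.7 CPM for Syp, 68.07 CPM for Synpr, 28.92 CPM for Rims1, 410.5 CPM for Dnm1 and 235.5 CPM for Synj1. They were also 206.3 CPM for Dlg4, 71.0 CPM for Shank1, 44.71 CPM for Shank3, 115.9 CPM for Nrxn2 and 36.33 CPM for Nlgn1, each the lowest of SAH 7d.

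In SAH 1d-3 the lowest values of the group that were marked were 342.2 CPM for Dlg4, 73.5 CPM for Shank3 and 185.6 CPM for Nrxn2. In sham-1 the marked low values were 314.4 CPM for Syt4, 463.1 CPM for Syp, 644.2 CPM for Dnm1 and 56.99 CPM for Amph. In the same library Dlg4 with 805.4 CPM and Shank3 with 235.9 CPM were marked as the highest of sham.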

How the results depend on the processing

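The count of 30 genes lower at SAH 1d was 21 to 32 with each library left out in turn, 28 to 35 under DESeq2, voom, DESeq2 size factors, the robust fit and other count filters, 2 when scaled to neuron markers, and 2 with all 18 libraries in 1 fit. It was 14, 14 and 11 with limma on log2(FPKM + 1), on log2(FPKM + 0.1) and on log2(FPKM + 1) without a filter. With all 18 libraries the spread of SAH 7d enters the fit, and for the FPKM scale the cause was not tested. Shares of all tested genes are given above for the main fits and some alternatives only. The other counts here and below, also those with a replicate block, describe the set alone. Scaling to neuron markers moved the median of all genes to 0.43 at SAH 1d and 0.36 at SAH 7d. It called 2 genes higher at SAH 1d, moved the median of the 41 genes from -0.48 to -0.047, and turned the median of SAH 7d against SAH 1d to -0.026. Under that scaling 13 of the 41 log2 fold changes at SAH 1d changed sign. Among them were 5 of the 30 called ones, Nlgn2 (0.061), Nrxn2 (0.111), Synj1 (0.130), Bsn (0.068) and Pclo (0.077). The count of genes higher at SAH 7d than at SAH 1d was 0 to 5 with each library left out in turn (5 without SAH 7d-5), 13 with both of the libraries SAH 1d-3 and SAH 7d-5 left out, and 11 with voom. The count of genes called at SAH 7d against sham was 0 under every alternative run.

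With the replicate number as a block, 27 genes were lower at SAH 1d, and 0 were called in the other comparisons. The correlations of same-numbered libraries, taken on deviations from their group means, ran from -0.318 to 0.292. They cannot show whether equal numbers mark shared handling. With 6 libraries in SAH 7d, the spread set by SAH 7d-5 limits what that group can show. Counts behind single values are lowest for Sv2c, with 1.45 CPM in SAH 7d-5.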
